A study of Mus musculus with 16 samples.

Results

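MHC class I molecules carry short peptides from inside a cell to its surface, where CD8+ T cells and natural killer cells read them. The genes described here are 10 genes of that pathway, chosen by name: the heavy chains H2-D1 and H2-K1, the nonclassical heavy chain H2-T23, the shared light chain B2m, the peptide transporter genes Tap1 and Tap2, the loading chaperone Tapbp, the immunoproteasome subunits Psmb8 and Psmb9, and the regulator Nlrc5. All 10 were found among the 53801 genes of the table, and all 10 passed the filter on low counts, which left 21768 genes. RNA was sequenced from oligodendrocytes, the myelin-forming glia, isolated from the brains of male mice by magnetic cell sorting, with an antibody not given in the sources used here. The study had 4 groups of 4 mice: App_HFD and App_NCD, homozygous App NL-G-F/NL-G-F knock-in mice on a high-fat diet or a normal control diet, and WT_HFD and WT_NCD, C57BL/6J Jcl mice on the same diets. The knock-in allele holds a humanised amyloid-β sequence with the Swedish, Beyreuther/Iberian and Arctic mutations inside the mouse App gene itself. Diets began at 2 months of age and lasted 6 months, so that all mice were 8 months old at sampling, and fat gave 60.0% of the energy of the high-fat diet and 12.5% of that of the control diet. The knock-in mice were kept as inbred lines while the C57BL/6J Jcl mice were purchased, so genotype and origin of the colony cannot be told apart. A library is named below by its group and the mouse number in the labels.

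In this pathway, proteasomes cut cytosolic proteins into peptides, and interferon signalling replaces their standard catalytic subunits by immunoproteasome subunits such as Psmb8 and Psmb9. The TAP1-TAP2 transporter moves the peptides into the endoplasmic reticulum, where tapasin, the product of Tapbp, helps to load them onto a heavy chain paired with β2-microglobulin. NLRC5 is a transactivator that acts at the promoters of several of the genes of this pathway. In healthy brain, class I genes are expressed at a low level in neurons and oligodendrocytes and at a higher level in microglia and endothelial cells.

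Of the members, 8 lie within the major histocompatibility complex on mouse chromosome 17 (mm10, GENCODE mouse release 21). Tapbp spans 33915899 to 33929292, H2-K1 33996017 to 34000347, Psmb9 34181987 to 34187764, Tap1 34187553 to 34197225, Psmb8 34197721 to 34201454, Tap2 34203527 to 34216321, H2-D1 35262730 to 35267499 and H2-T23 36029773 to 36032855. B2m lies on chromosome 2 (122147686 to 122153083) and Nlrc5 on chromosome 8 (94434356 to 94527272). Tap1 and Psmb9 are transcribed away from each other from overlapping first parts, with RefSeq start sites 226 bases apart. Promoter windows of 250 bases before the RefSeq start site (build GRCm38.p6) were matched for 8 of the 10 members. No window was matched for Tap2 and Nlrc5.

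Below are 4 of these windows, shown because they cover the presenting complex and the promoter that Tap1 shares with Psmb9. They are written 5′ to 3′ on the gene's strand. Capitals mark matches on either strand to 4 motifs: the κB motif GGGGATTCCCC, the CCAAT box, the TGACG core of the cyclic-AMP response element, and the interferon response element, here GAAA, any 2 bases and GAAA again. No matches overlap in these windows.
H2-D1 (chr17:35262844-35263093, plus strand): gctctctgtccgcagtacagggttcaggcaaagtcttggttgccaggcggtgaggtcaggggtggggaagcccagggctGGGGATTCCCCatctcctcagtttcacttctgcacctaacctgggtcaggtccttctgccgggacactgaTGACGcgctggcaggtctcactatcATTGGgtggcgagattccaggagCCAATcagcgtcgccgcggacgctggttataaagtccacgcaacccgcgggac
H2-K1 (chr17:34000348-34000597, minus strand): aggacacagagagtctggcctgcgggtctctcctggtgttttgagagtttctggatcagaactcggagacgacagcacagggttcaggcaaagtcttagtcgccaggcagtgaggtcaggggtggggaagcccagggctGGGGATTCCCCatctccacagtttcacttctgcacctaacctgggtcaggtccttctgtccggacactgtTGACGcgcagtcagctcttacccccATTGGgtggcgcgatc
B2m (chr2:122147437-122147686, plus strand): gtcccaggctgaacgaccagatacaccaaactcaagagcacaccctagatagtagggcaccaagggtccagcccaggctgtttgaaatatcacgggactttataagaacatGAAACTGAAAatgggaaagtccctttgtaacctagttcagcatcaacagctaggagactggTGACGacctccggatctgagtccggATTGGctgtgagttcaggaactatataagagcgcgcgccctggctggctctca
Tap1 (chr17:34187306-34187555, plus strand): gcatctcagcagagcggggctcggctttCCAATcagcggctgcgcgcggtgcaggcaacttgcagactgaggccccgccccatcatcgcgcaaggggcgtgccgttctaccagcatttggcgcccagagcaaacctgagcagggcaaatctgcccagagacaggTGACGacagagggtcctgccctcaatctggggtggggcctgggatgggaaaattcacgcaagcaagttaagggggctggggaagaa

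The κB motif, searched only as the exact string given above, was present in 2 of the 8 matched members, H2-D1 and H2-K1. The string was present in 10 of all 32851 windows of this length (0.0304%), the members' own windows included. Those 10 were from H2-D1, H2-K1, the further class I gene H2-Q6 and genes outside the pathway. The share is therefore made up in part of class I genes and is no independent yardstick for the members. Looser forms were not searched, so this share does not give how rare κB sites are in general. The match lay at bases -171 to -161 from the start of H2-D1 and -111 to -101 in the H2-K1 window printed above. CCAAT was present in 7 of 8 members and in 33.8% of all windows, so that motif is common everywhere. TGACG was found in 5 of 8 members (H2-D1, H2-K1, B2m, Tap1 and Psmb9) against 17.8% of all windows. The interferon response element, in the form given above, was found in 2 of 8, B2m (GAAACTGAAA, at -139 to -130) and H2-T23, against 2.98% of all windows. Other forms of this element were not searched, so a window without a match may still hold one. The Tap1 and Psmb9 windows share 225 bases read from opposite strands, so their matches are partly the same letters. A match describes the letters only, and binding was not measured.

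One library was unlike all others: in App_NCD 553 only 18928 genes were detected and 39.4% of counts were mitochondrial. The remaining 15 libraries had 27151 to 30617 genes detected and 1.22% to 4.62% mitochondrial counts. Totals ran from 64538297 to 84114322 counts in App_HFD, 69772745 to 101709022 in App_NCD, 90220118 to 101737328 in WT_HFD and 98588561 to 217925484 in WT_NCD. The sum of 25 myelin and mature oligodendrocyte markers was 43620 to 75650 CPM (counts relative to the library total as scaled by TMM) in all 16 libraries, and no marker of that list was at 0 throughout. Markers of microglia were also abundant, as described below. Tests of the members are given with all 16 libraries and, where it bears on a call, without App_NCD 553 (15 libraries).

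The 3 heavy chains and B2m, which together form the complex at the cell surface, had positive estimates of App over WT on both diets. With 16 libraries H2-D1 and H2-K1 passed the test on both diets, B2m on the control diet and H2-T23 on the high-fat diet, and without App_NCD 553 all of them passed on both. H2-D1 measured 536, 569, 579 and 188 CPM in App_NCD 537, 538, 545 and 553, against 218, 128, 142 and 137 CPM in WT_NCD 4, 5, 11 and 12. High-fat diet values were 658, 643, 494 and 468 CPM in App_HFD and 129.5, 131, 125 and 195 CPM in WT_HFD 2, 3, 15 and 16. Apart from App_NCD 553, which lay below WT_NCD 4, every App library was above every WT library of its diet. H2-D1 was 3.00-fold higher in App_NCD than in WT_NCD (log2 fold change 1.58 ± 0.302 (SE), edgeR quasi-likelihood adjusted p = 0.00392, n = 4 each) and 3.90-fold higher in App_HFD than in WT_HFD (1.96 ± 0.305, adjusted p = 0.000904). Without App_NCD 553 the log2 differences were 1.82 and 1.94.

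H2-K1, the other classical heavy chain of this strain, had 293, 341, 316 and 145 CPM in App_NCD, against 189, 113, 129.6 and 117 CPM in WT_NCD. Its levels were 368, 368, 312 and 299 CPM in App_HFD, against 110.0, 107, 106 and 160.4 CPM in WT_HFD. Groups were separate on the high-fat diet, and on the control diet App_NCD 553 lay below WT_NCD 4. H2-K1 rose by a log2 fold change of 1.00 ± 0.244 on the control diet (edgeR adjusted p = 0.0195) and 1.48 ± 0.247 on the high-fat diet (adjusted p = 0.00161), both estimates below those of H2-D1, and by 1.18 and 1.46 without App_NCD 553. H2-T23 encodes Qa-1, which presents leader peptides to natural killer cell receptors, and it had 74.3, 96.5, 109.6 and 21.5 CPM in App_NCD and 43.0, 27.9, 44.4 and 26.8 CPM in WT_NCD. Its App_HFD libraries held 103, 104, 87.3 and 83.3 CPM, and its WT_HFD libraries 30.2, 26.7, 23.6 and 39.1 CPM. The App_NCD 553 value was the lowest of all 16 for this gene. H2-T23 rose on the high-fat diet (1.66 ± 0.360, edgeR adjusted p = 0.00978), and on the control diet it passed the test only without App_NCD 553 (1.36 ± 0.203, adjusted p = 0.000309, against 1.09 ± 0.354 and 0.0694 with it).

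B2m, the light chain that all class I heavy chains need to reach the surface, had the largest difference of the 10 on both diets. It reached 750.2, 1145, 1250.4 and 17359 CPM in App_NCD, against 307, 168, 74.9 and 181 CPM in WT_NCD. App_HFD libraries had 1302, 1154, 911 and 574 CPM, and WT_HFD libraries had 165, 151, 199.7 and 297 CPM. No App library overlapped a WT library, and App_NCD 553 exceeded the next highest library by more than 10-fold. The 590 nuclear genes with under 1000 bases of exon, to which B2m (860 bases) belongs, held 16.8% of nuclear CPM in App_NCD 553, against 1.81% to 3.14% in the other App libraries and 1.15% to 2.71% in WT libraries. Of the WT libraries, WT_NCD 11 was lowest both in that share and in B2m. The part of gene length in the B2m values was not tested. By level, B2m ranked 6th of 14765 nuclear genes in App_NCD 553, 56th to 118th in the other 3 App_NCD libraries and 369th to 2687th in WT_NCD. Its log2 fold change on the control diet was 4.81 ± 0.915 (edgeR adjusted p = 0.0039) with 16 libraries and 2.49 ± 0.385 (adjusted p = 0.000472) without App_NCD 553. The high-fat diet estimate hardly moved (2.28 ± 0.817 and 2.26 ± 0.367), but the adjusted p was 0.121 with 16 libraries and 0.000595 with 15, since the libraries share one estimate of the spread.

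**Figure D1:**
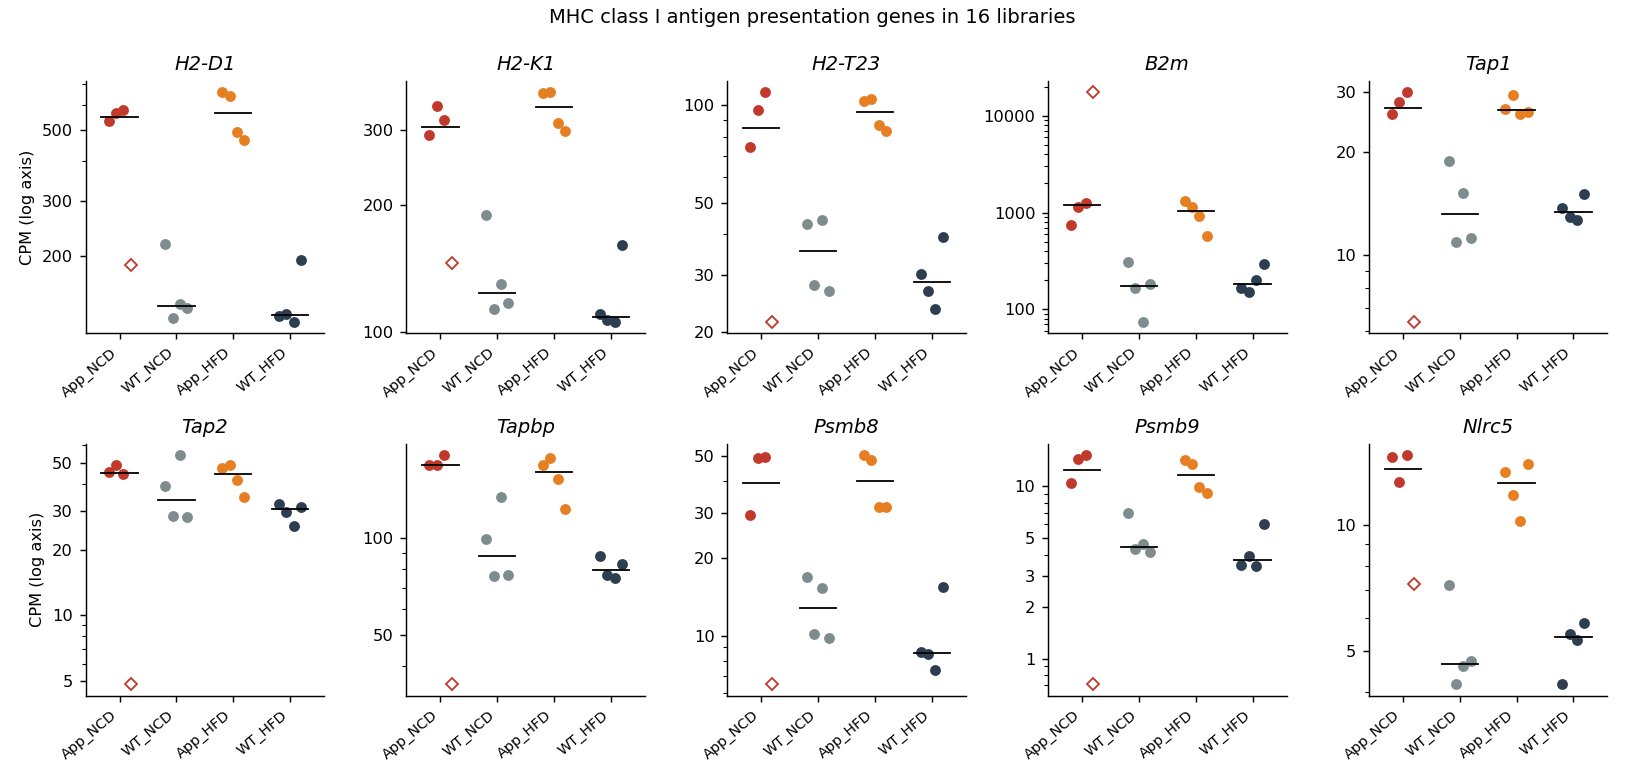
CPM (log axis) of the 10 genes in each of the 16 libraries, by group; points are single libraries, the line is the group median, and the open diamond is App_NCD 553. In App_HFD every library lies above every WT_HFD library for each gene, while App_NCD 553 is below the other App_NCD libraries for each gene but B2m, where it reaches 17359 CPM.

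Close copies limit how far the heavy chains can be told apart. Of the 50-base words in the transcripts of H2-D1, 12.8% also occurred in transcripts of other genes, with 9.6% for H2-K1 and 13.6% for H2-T23, and none for B2m, Psmb9 and Nlrc5. At 100 bases the shares were 3.6%, 1.0% and 3.2% for the 3 heavy chains. The partner with the most shared words was H2-Q1 for H2-D1 and H2-Q10 for H2-K1, both class I genes, so a small part of the heavy chain counts may have been divided among them in either direction.

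The ratio between the classical heavy chains also differed by genotype. Per kilobase of exon, H2-K1 stood at 0.491 to 0.561 of H2-D1 in App_HFD, against 0.714 to 0.746 in WT_HFD. On the control diet it stood at 0.479, 0.527, 0.479 and 0.679 in App_NCD, against 0.749 to 0.803 in WT_NCD. The ratio was lower in every App library than in every WT library, App_NCD 553 included, and does not depend on how libraries are scaled. The log2 ratio differed by -0.48 on the high-fat diet and by -0.53 on the control diet (exact two-sided permutation test, p = 0.0286 for each, the smallest that 4 against 4 allows; adjusted p = 0.0381 over the 12 ratio tests made, all on ratios chosen after levels had been seen). B2m over the summed heavy chains H2-D1 and H2-K1, per kilobase, was 2.36 to 3.98 in App_HFD, against 2.01 to 2.75 in WT_HFD, and the groups overlapped (exact permutation p = 0.0857). On the control diet it was 2.84 to 4.38 in the 3 other App_NCD libraries and 165 in App_NCD 553, against 0.880 to 2.40 in WT_NCD, with no overlap (p = 0.0286, exact permutation test).

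The loading genes showed smaller differences, and they differed among themselves. Tap1 had 26.0, 28.1, 30.0 and 6.39 CPM in App_NCD, against 18.8, 10.9, 15.2 and 11.2 CPM in WT_NCD. High-fat diet levels were 26.8, 29.5, 25.9 and 26.3 CPM in App_HFD, against 13.7, 13.0, 12.7 and 15.1 CPM in WT_HFD. All App libraries except App_NCD 553 were above all WT libraries of their diet. Tap1 passed the test on neither diet with 16 libraries (0.69 ± 0.331, edgeR adjusted p = 0.199, control diet; 1.00 ± 0.333, 0.0909, high-fat diet), and rose on both without App_NCD 553 (0.97 ± 0.153, adjusted p = 0.000522; 0.97 ± 0.144, 0.000248). Tapbp, the peptide-loading chaperone, had 168, 169, 181 and 35.0 CPM in App_NCD, against 99.4, 76.3, 134 and 76.6 CPM in WT_NCD. It had 169, 178, 152 and 123 CPM in App_HFD, against 88.2, 76.7, 74.8 and 82.8 CPM in WT_HFD. The pattern was that of Tap1: no call with 16 libraries (adjusted p = 0.359 and 0.141 on the control and high-fat diets) and a rise without App_NCD 553 (0.81 ± 0.172 and 0.93 ± 0.162, edgeR adjusted p = 0.00482 and 0.000961).

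Tap2 was the member that passed the test on neither diet in either fit, although its product works as a partner of that of Tap1. Its levels were 45.2, 48.7, 44.5 and 4.83 CPM in App_NCD, against 39.2, 28.6, 54.1 and 28.2 CPM in WT_NCD. In App_HFD it had 47.3, 48.7, 41.8 and 34.8 CPM, against 32.3, 29.7, 25.6 and 31.4 CPM in WT_HFD. On the control diet WT_NCD 11 was the highest of the 8 libraries, while on the high-fat diet the groups did not overlap. The log2 fold change was -0.07 ± 0.447 on the control diet (edgeR adjusted p = 0.94) and 0.54 ± 0.449 on the high-fat diet (0.657) with 16 libraries, and 0.27 ± 0.189 (0.356) and 0.51 ± 0.177 (0.0539) with 15. The Tap1 to Tap2 ratio per kilobase was 0.391 to 0.523 in App_HFD, against 0.294 to 0.343 in WT_HFD, and 0.397 to 0.914 in App_NCD, against 0.194 to 0.332 in WT_NCD. Every App library had a higher ratio than every WT library of its diet (log2 differences of 0.47 and 0.96, exact two-sided permutation p = 0.0286 and adjusted p = 0.0381 for each), and without App_NCD 553 the control-diet difference was 0.68.

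Of the immunoproteasome subunits, Psmb8, which encodes the chymotrypsin-like subunit β5i, rose on the high-fat diet in both fits. Psmb8 had 50.2, 47.9, 31.7 and 31.5 CPM in App_HFD, against 8.66, 8.48, 7.38 and 15.5 CPM in WT_HFD. On the control diet it had 29.3, 49.0, 49.5 and 6.47 CPM in App_NCD, against 16.9, 10.2, 15.3 and 9.76 CPM in WT_NCD. The difference was 4.03-fold on the high-fat diet (2.01 ± 0.461, edgeR adjusted p = 0.0139), and 1.36 ± 0.452 on the log2 scale on the control diet (0.0738), where it passed without App_NCD 553 (1.67 ± 0.281, 0.000857). Psmb9, which encodes β1i, had 14.1, 13.4, 9.84 and 9.15 CPM in App_HFD, against 3.47, 3.96, 3.43 and 6.06 CPM in WT_HFD. Its control-diet values were 10.4, 14.4, 15.1 and 0.710 CPM in App_NCD, against 6.96, 4.32, 4.60 and 4.13 CPM in WT_NCD. Psmb9 passed the test on neither diet with 16 libraries (adjusted p = 0.241 and 0.144 on the control and high-fat diets), and rose by 1.38 ± 0.235 and 1.43 ± 0.224 without App_NCD 553 (edgeR adjusted p = 0.000982 and 0.000395).

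Each immunoproteasome subunit takes the place of one standard subunit, and none of the standard subunit genes passed the test on either diet. The ratio of Psmb8 to Psmb5 per kilobase was 0.185 to 0.279 in App_HFD, against 0.0448 to 0.106 in WT_HFD, and 0.260 to 0.406 in the 3 other App_NCD libraries (2.17 in App_NCD 553), against 0.0558 to 0.113 in WT_NCD. Psmb9 to Psmb6 was 0.0708 to 0.0843 in App_HFD, against 0.0267 to 0.0532 in WT_HFD. Psmb10 to Psmb7, the remaining pair, was 0.401 to 0.701 in App_HFD, against 0.232 to 0.326 in WT_HFD. All 3 ratios were higher in every App_HFD library than in every WT_HFD library (log2 differences of 1.94, 1.07 and 0.86, exact two-sided permutation p = 0.0286, adjusted p = 0.0381 for each). On the control diet the Psmb8 to Psmb5 ratio was separate as well (2.85, and 2.14 without App_NCD 553), while the Psmb9 ratio (exact permutation p = 0.0571) and the Psmb10 ratio (0.943) overlapped between groups because of App_NCD 553. In that library Psmb5, at 0.795 CPM, and Psmb6, at 9.85 CPM, were lower than in any other library. With 3 libraries against 4, an exact test cannot go below 0.0571.

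**Figure D2:**
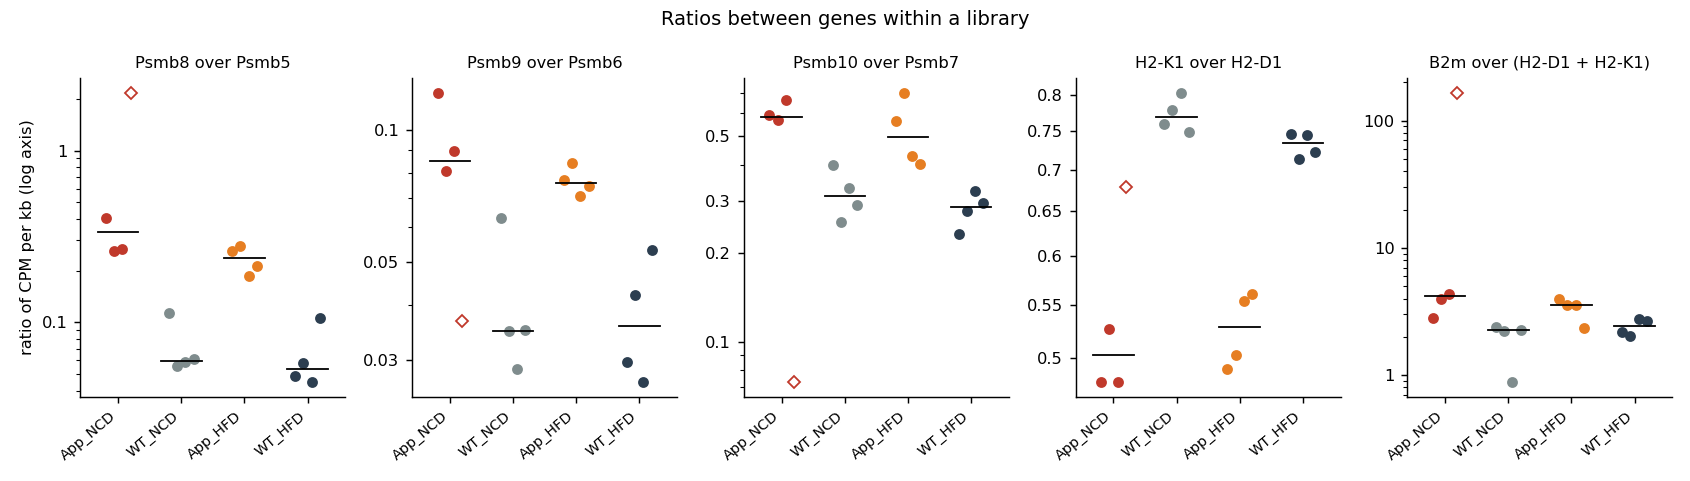
Ratios of CPM per kilobase of exon (log axis) between genes of the same library, by group; points are libraries, lines are group medians, and the open diamond is App_NCD 553. The proteasome ratios are higher in all App_HFD than in all WT_HFD libraries, and H2-K1 over H2-D1 is lower, at 0.491 to 0.561 against 0.714 to 0.746.

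Nlrc5, the class I transactivator, was the least abundant member per kilobase. It had 14.5, 12.6, 14.6 and 7.21 CPM in App_NCD, against 7.18, 4.17, 4.61 and 4.74 CPM in WT_NCD. In App_HFD it had 13.3, 11.8, 10.2 and 13.9 CPM, against 4.18, 5.49, 5.33 and 5.84 CPM in WT_HFD. App and WT libraries did not overlap on either diet, and App_NCD 553 was just above WT_NCD 4. Nlrc5 rose by 1.24 ± 0.232 on the log2 scale on each diet (2.37-fold, edgeR adjusted p = 0.00347 on the control and 0.00377 on the high-fat diet), and by 1.40 and 1.22 without App_NCD 553.

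Counted together, 4 of the 10 members (B2m, H2-D1, H2-K1 and Nlrc5) were higher in App_NCD than in WT_NCD by edgeR's test with 16 libraries, where 6.5% of all tested genes were called higher. On the high-fat diet 5 of 10 were higher in App_HFD (H2-D1, H2-K1, H2-T23, Nlrc5 and Psmb8), against 5.09% of all genes. Without App_NCD 553 the 9 members other than Tap2 were higher on each diet, against 10.2% and 10.8% of 22322 genes tested. No member was lower in either fit, against 1.88% of all genes on the control diet and 2.05% on the high-fat diet with 16 libraries, and 7.22% and 8.54% with 15. The median log2 fold change of the 10 was 1.06 on the control diet and 1.47 on the high-fat diet, beside -0.02 and 0.01 over all genes. App_HFD and WT_HFD did not overlap for all 10 members, against 15.0% of all genes higher in that way. App_NCD and WT_NCD did not overlap for 2 of 10 (7.66% of all genes), or for 9 of 10 without App_NCD 553 (14.3%). The members were chosen with earlier results of these data known, so the counts beside these shares are not those of an unselected set.

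**Figure D3:**
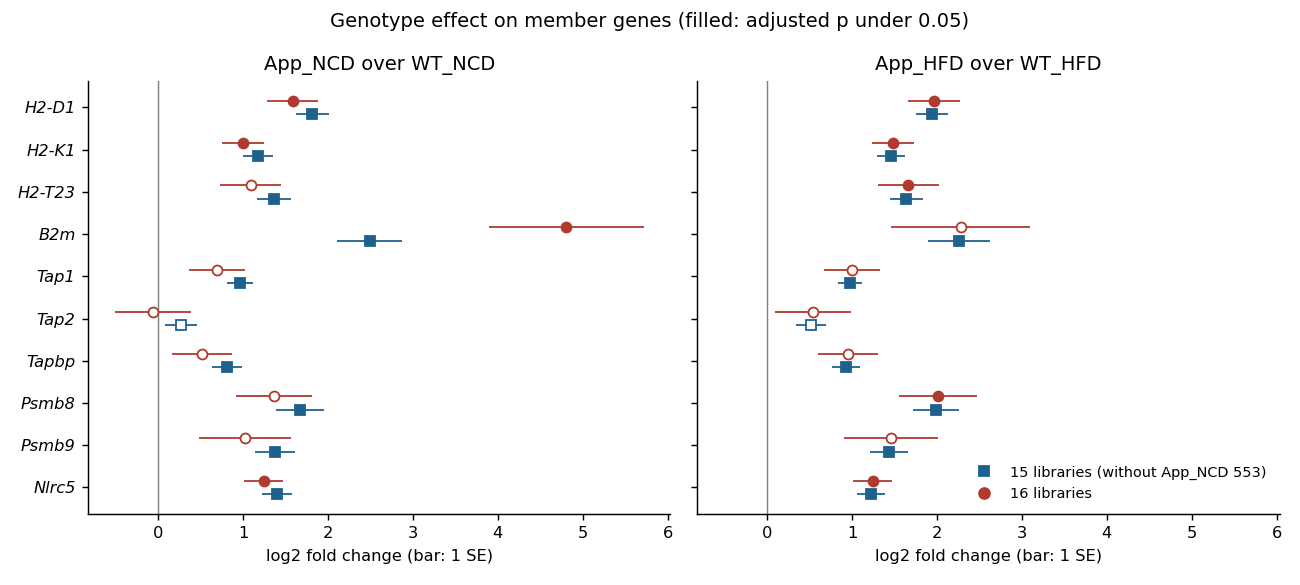
Log2 fold change of App over WT on the control diet (left) and the high-fat diet (right) for each gene, with all 16 libraries (circles) and without App_NCD 553 (squares); bars are 1 SE and filled symbols passed an adjusted p of 0.05. The SEs shrink without App_NCD 553, B2m on the control diet is 2.49 without it and 4.81 with it, and Tap2 is unfilled in every case.

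Levels per kilobase of exon followed nearly the same order in both genotypes. In App_HFD they were 1145 ± 369.7 CPM per kb for B2m (SD, n = 4), 219 ± 38.3 for H2-D1, 115 ± 12.5 for H2-K1, 42.9 ± 6.68 for Tapbp, 32.7 ± 3.76 for H2-T23, 11.9 ± 2.99 for Psmb8, 11.4 ± 1.67 for Tap2, 4.96 ± 0.298 for Tap1, 3.17 ± 0.677 for Psmb9 and 1.45 ± 0.198 for Nlrc5. In WT_HFD they were 236 ± 76.4 for B2m, 56.3 ± 12.9 for H2-D1, 41.1 ± 9.02 for H2-K1, 22.2 ± 1.68 for Tapbp, 10.3 ± 2.33 for H2-T23, 7.87 ± 0.789 for Tap2, 2.96 ± 1.10 for Psmb8, 2.49 ± 0.194 for Tap1, 1.16 ± 0.340 for Psmb9 and 0.613 ± 0.0846 for Nlrc5. The ranges of mean ± SD overlapped for Psmb8 and Tap2 in App_HFD and for Psmb8 and Tap1 in WT_HFD. H2-K1 was below H2-D1 in every library, as the ratios above show. B2m, H2-D1 and H2-K1 were the 3 most abundant members and Nlrc5 the least in both.

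No member passed a test of diet. In simulated counts with 16 libraries, the fit recovered only 30% of 2-fold genotype changes on the control diet and 23% on the high-fat diet. Diet changes were not simulated, and real ones may have been missed. In knock-in mice (App_HFD over App_NCD), in wild type (WT_HFD over WT_NCD) and in the interaction of diet and genotype, edgeR called 0 of 10 members and 0.0% of all genes with 16 or 15 libraries. With 16 libraries, 1, 0 and 1 members and 2586, 419 and 639 of all genes had an unadjusted p under 0.05 in these 3 comparisons. Over all genes DESeq2 called 102, 7 and 3 and limma-voom 161, 6 and 0, and neither called a member. The member with the smallest p was B2m in the knock-in, where App_HFD was lower than App_NCD by a log2 fold change of -2.38 ± 0.820 (unadjusted p = 0.0108, edgeR adjusted p = 0.391). That difference was -0.08 ± 0.378 without App_NCD 553. In wild type, 8 of 10 members had negative diet estimates, from -0.38 for Psmb8 to 0.15 for B2m, all within 1 SE of 0 with 16 libraries. The members' diet estimates in the knock-in without App_NCD 553 lay between -0.19 (Psmb9) and 0.09 (H2-K1).

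Markers of microglia, the brain's resident macrophages, moved with the members. The sum of 15 homeostatic microglial markers was 9194 to 15400 CPM in App_HFD, against 2961 to 5552 in WT_HFD, and 11620 to 14180 in the 3 other App_NCD libraries (7377 in App_NCD 553), against 3947 to 6534 in WT_NCD. Of these 15 genes, 13 rose on the high-fat diet and 9 on the control diet (13 without App_NCD 553), and none was at 0. The sum of 18 markers of the plaque-associated microglial state was 21480 to 35010 CPM in App_HFD, against 5429 to 6579 in WT_HFD, and 14040 to 32690 in App_NCD, against 6316 to 8304 in WT_NCD. In that list 17 of 18 rose on the high-fat diet and 16 on the control diet. In these bulk libraries, a larger number of cells of a type and more RNA per cell cannot be told apart.

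Among wild-type mice most members also followed these markers. WT_NCD 4 and WT_HFD 16 had the highest sums of homeostatic microglial markers of their groups, 6534 and 5552 CPM. They were the highest WT libraries of their diet for 7 and 8 of the 10 members. The exceptions were H2-T23, Tap2 and Tapbp, highest in WT_NCD 11, and Tap2 and Tapbp, highest in WT_HFD 2. Members vary together, and the share of all genes highest in WT_NCD 4 or WT_HFD 16 was not taken. Expressed per 1000 CPM of the 15 homeostatic microglial markers, a ratio chosen after the levels had been seen, most members no longer lay higher in App. Because the marker sum was higher in App, a gene with equal CPM in both genotypes gives a lower ratio there. The ratio was not taken for all genes, so the counts below have no such share beside them and describe the members only. On the high-fat diet 0 of 10 were separately higher in App_HFD, 2 were separately lower (Tap2 and Tapbp) and 8 overlapped with WT_HFD. In the 3 App_NCD libraries other than App_NCD 553, 2 were separately higher than in WT_NCD, 4 lower (H2-K1, Tap1, Tap2 and Tapbp) and 4 overlapped. With App_NCD 553 included, 1 was separately higher (B2m), 4 were lower and 5 overlapped, with H2-D1 at 25.5 in that library. H2-K1 stood at 23.9 to 32.5 in App_HFD, against 28.9 to 35.7 in WT_HFD, and at 22.3 to 25.2 in the 3 other App_NCD libraries, against 28.7 to 30.1 in WT_NCD. Psmb8 overlapped on the control diet, at 2.52 to 3.49 in those 3 libraries, against 2.41 to 3.56 in WT_NCD. Tap2 was lower, at 3.16 to 3.78 in App_HFD, against 5.66 to 9.58 in WT_HFD. B2m and H2-D1 stayed higher on the control diet: B2m at 64.5 to 88.2 in the 3 App_NCD libraries, against 17.4 to 47.0 in WT_NCD, and H2-D1 at 40.4 to 46.1, against 32.3 to 33.8. On the high-fat diet both overlapped, H2-D1 at 41.7 to 50.9 in App_HFD, against 34.3 to 42.3 in WT_HFD. The part of microglial RNA in the members' differences was not tested.

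**Figure D4:**
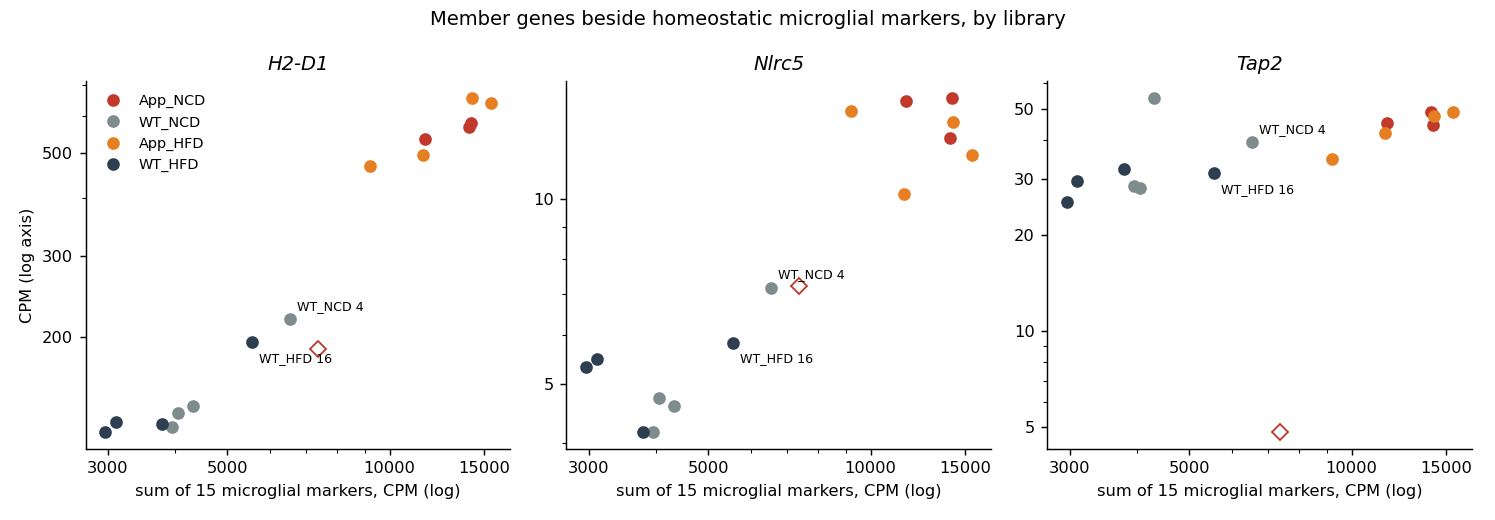
H2-D1, Nlrc5 and Tap2 (CPM, log axis) against the summed CPM of 15 homeostatic microglial markers (log axis) in each library; colours are groups and the open diamond is App_NCD 553. H2-D1 follows the marker sum within and between groups, with WT_NCD 4 and WT_HFD 16 above the other WT libraries, while Tap2 changes little over the same range apart from App_NCD 553 at 4.83 CPM.

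Other cell types moved less or the other way. The T and natural killer cell markers, 13 genes, summed to 4.36 to 6.18 CPM in App_HFD, against 3.76 to 8.07 in WT_HFD, and to 4.94 to 13.9 in App_NCD, against 3.63 to 8.09 in WT_NCD, and edgeR called 0 of the 9 tested on either diet (1 at an unadjusted p under 0.05 on each). These sums rest largely on Cd4, with a mean of 3.61 CPM over all libraries and 11.3 CPM in App_NCD 553. Trac was next, at a mean of 0.740 CPM. The 12 endothelial markers summed to 295 to 358 CPM in App_HFD, against 304 to 597 in WT_HFD, and to 227 to 344 in App_NCD, against 290.5 to 533 in WT_NCD, and 2 fell in App_HFD and 4 in App_NCD (5 and 7 without App_NCD 553). Border macrophage markers passed the test in 0 of 8 cases on each diet (3 at an unadjusted p under 0.05 on the high-fat diet and 1 on the control diet). No neuronal marker of 10 passed (1 on each diet at an unadjusted p under 0.05), and of 10 astrocytic markers 2 fell on the control diet. Without App_NCD 553, 1 border macrophage marker rose and 1 T or natural killer cell marker fell on the high-fat diet, 1 neuronal marker fell on each diet, and of the astrocytic markers 4 fell on the control diet while 1 rose and 1 fell on the high-fat diet. Of 10 oligodendrocyte precursor markers 1 rose on each diet, and 1 fell on the high-fat diet (3 without App_NCD 553). Of the 25 myelin markers none rose on either diet. On the high-fat diet 1 fell (2 without App_NCD 553; 4 at an unadjusted p under 0.05), with a median log2 fold change of -0.17, and on the control diet 0 passed by edgeR (9 at an unadjusted p under 0.05), with a median of -0.42. The estimate was positive for 2 of 25 on the high-fat diet and 3 of 25 on the control diet.

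Of the other genes of the pathway, taken from lists made with earlier results of these data known, the remaining class I heavy chain genes rose in part. With 16 libraries 5 of 15 tested were higher in App_NCD and 4 of 15 in App_HFD, and 8 of 15 on each diet without App_NCD 553. H2-Q4 had 31.4 to 45.4 CPM in App_NCD, against 13.3 to 28.0 in WT_NCD (0.98 ± 0.226, edgeR adjusted p = 0.0134), and 35.6 to 43.8 in App_HFD, against 15.3 to 26.1 in WT_HFD (1.06 ± 0.226, 0.00923). H2-M3, which presents formylated peptides, rose by 1.28 and 1.88 on the control and high-fat diets, and H2-T24 by 1.10 and 0.88. H2-M2 was very rare, at 0.654 to 0.872 CPM in the 3 other App_NCD libraries and 0 in App_NCD 553, against 0 to 0.0367 in WT_NCD. It had 0.343 to 0.467 CPM in App_HFD, against 0.0400 to 0.113 in WT_HFD. H2-M2 was among the genes called, but it reached the filter on low counts mainly through App libraries. Its call is therefore no separate evidence of a rise. Heavy chain genes share sequence, so their separate values are uncertain.

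Among 10 further loading genes, 1 rose on the control diet and 0 on the high-fat diet, where 1 had an unadjusted p under 0.05; without App_NCD 553 the counts were 3 and 2. The 1 called on the control diet with 16 libraries was Erap1, the aminopeptidase that trims peptides in the endoplasmic reticulum (0.97 ± 0.222, edgeR adjusted p = 0.0134). Erap1 had 136 CPM in App_NCD 553 and 58.7 to 64.0 in the 3 other App_NCD libraries, against 38.1 to 48.8 in WT_NCD. Its high-fat diet levels were 50.5 to 64.9 CPM in App_HFD, against 39.2 to 43.8 in WT_HFD (0.46 ± 0.221, adjusted p = 0.287; 0.00415 without App_NCD 553). Of the 5 other immunoproteasome genes, 1 rose on the control diet and 2 on the high-fat diet (3 and 5 without App_NCD 553). Pomp, the proteasome assembly factor, rose on both by 0.51 and 0.56, and Psme1, which encodes a subunit of the PA28 activator, rose on the high-fat diet by 0.86. Of 14 standard proteasome subunit genes 0 were called by edgeR on either diet in either fit (1 on each diet at an unadjusted p under 0.05 with 16 libraries), with a median log2 fold change of -0.02 on the control and 0.13 on the high-fat diet. The 2 most abundant, Psmb1 and Psma6, differed by 0.21 ± 0.159 and -0.02 ± 0.137 on the control diet.

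Regulators of class I expression rose in 6 of 22 cases on the control diet and 7 of 22 on the high-fat diet (10 and 9 without App_NCD 553). Irf1, an interferon-induced transcription factor that acts on class I promoters, had 47.2 to 71.8 CPM in App_NCD, against 14.9 to 28.3 in WT_NCD, and 58.0 to 77.4 in App_HFD, against 15.8 to 25.0 in WT_HFD. It rose by 1.60 ± 0.213 (edgeR adjusted p = 0.000211) and 1.82 ± 0.214 (7.66e-05), with separate groups on both diets. Ifnar2, a type I interferon receptor chain, rose by 1.32 and 0.94 on the control and high-fat diets. Ifnar2 was highest in App_NCD 553, at 185 CPM, with 83.7 to 101 in the other App_NCD libraries, against 38.1 to 55.2 in WT_NCD. Nfya, a subunit of the factor that binds CCAAT boxes, rose by 0.96 and 0.85. Of 6 tested genes on a list of class I receptors and their relatives, Lilrb4a rose on the high-fat diet (3.10 ± 0.866, edgeR adjusted p = 0.0414). It had 21.3 to 34.6 CPM in App_HFD, against 0.776 to 5.57 in WT_HFD. Whether its product binds class I was not tested, so this rise does not speak for class I receptors. None of 6 interferon ligand genes passed the filter on low counts, with means of 0.0480 CPM for Ifng and 0.0338 CPM for Ifnb1 over the 16 libraries.

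Genes outside the pathway that varied most like the members were sought over 15 libraries among 13403 genes averaging 1 CPM or more, by Pearson's r of log2 CPM. Closest to H2-D1 were Pros1 (0.997), Ctsh (0.996), Cd84 (0.996), Ugt1a7c (0.995) and Irf8 (0.995). Over deviations from group means r was between 0.937 and 0.971 for these 5. Closest to Nlrc5 were Il1a (0.980), Egr2 (0.977), Oasl2 (0.976), Bend6 (0.975) and Plek (0.975), with r within groups between 0.698 and 0.785. Among members, H2-D1 varied within groups most like H2-K1 (0.972) and Psmb9 (0.939), and least like Tapbp (0.409) and Tap2 (0.431). Nlrc5 had r of 0.0278 with Tap2 and -0.00813 with Tapbp within groups. The libraries share the groups, sort and depth, and these values describe 15 points only.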

How the data were processed

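Total RNA of sorted oligodendrocytes was enriched for poly(A) RNA and made into directional libraries, per the labels' protocols. The deposited table holds estimated counts of genes by library. The submitters' processing notes name fastp 0.23.2, HISAT2 2.2.1, StringTie 2.2.1 and bedtools 2.25.0, and build mm10. StringTie derives counts from coverage and can divide reads between near-identical genes, and the strand setting is not given in the sources used here. Since every value was a whole number, rounding had no effect.

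From these counts, genes were filtered with filterByExpr, scaled by TMM and tested with edgeR 4.0.16 (limma 3.58.1, R 4.3.3), by the quasi-likelihood test with robust dispersions on 16 libraries (4 groups, 12 residual degrees of freedom). P-values were adjusted by Benjamini-Hochberg over all tested genes, with a threshold of 0.05. The same fit without App_NCD 553 tested 22322 genes. Log2 CPM used a prior count of 0.5. Genes were matched to GENCODE mouse release 21 by ID (53620 of 53801, 99.7%), which gave positions and summed exon lengths, and promoters came from RefSeq. Ratios were compared with exact permutation tests in Python 3.11.15 (scipy 1.17.1). The code was tested on simulated counts.

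The members and lists were chosen with earlier results of these data known. The text names all members, up to 4 called genes of each other list by adjusted p (otherwise the 2 most abundant), abundant markers, and the 5 genes most like H2-D1 and Nlrc5; Psmb5, Psmb6, Psmb7 and Psmb10 were added as partners in ratios. Some genes that this rule takes are not reported here. Alternatives were DESeq2 1.42.0, limma-voom, other scalings and filters, and each library left out. Mouse numbers in the labels name separate mice within a group, and no batch was given.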

Additional observations from a re-analysis of the deposited data

Results flagged for a closer look

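Dixon's criterion was applied to 40 combinations of a member and a group of 4 libraries. In 10 of them, 1 library lay far from the other 3. Chance gives about 1 in 20 only for independent, normally distributed values. The members vary together over the same libraries, so the 10 are not separate events and cannot be set against that rate. The share over all genes was not taken. Of the 10, 5 were in App_NCD 553. That library was high for B2m at 17359 CPM, and low for H2-D1 at 188 CPM, Tap1 at 6.39 CPM, Tap2 at 4.83 CPM and Tapbp at 35.0 CPM. WT_HFD 16 was above the rest of its group for H2-D1 at 195 CPM, H2-K1 at 160.4 CPM and Psmb8 at 15.5 CPM. WT_NCD 4 was above the rest of its group for H2-D1 at 218 CPM and Psmb9 at 6.96 CPM. These 2 WT libraries had the highest sums of homeostatic microglial markers of their groups, and App_NCD 553 had the highest mitochondrial share of all 16 libraries. The part of either in these values was not tested.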

How the results depend on the processing

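On the control diet, where 4 members were called higher, the count was 10 with limma-voom and quality weights, 1 (B2m) with library totals alone, 8 with scaling to the myelin list, 0 with the pair's 8 libraries alone, and 3 to 9 with 1 library left out. On the high-fat diet, where 5 were called, it was 10 with limma-voom, 2 with library totals alone (H2-D1 and H2-K1), 10 with the pair's 8 libraries alone, and 4 to 9 with 1 library left out. Chosen after seeing the data were 4 fits without App_NCD 553: with myelin scaling (9 on the control and 10 on the high-fat diet), library totals (9 and 9), DESeq2 (9 and 10), and without WT_NCD 4 and WT_HFD 16 as well (9 and 9). The cause of these moves was not tested. The share of all genes called under each alternative is not given here. These counts therefore do not show whether the moves were particular to the members. Tap2 on the control diet turned from -0.07 to 0.61 with limma-voom, 0.27 with myelin scaling, 0.27 without App_NCD 553, 0.13 without WT_NCD 11 (-0.28 to 0.27 over all single libraries left out), and to 0.60, 0.21, 0.29 and 0.31 in the 4 added fits. Of 578 member values under the alternatives 557 were above 0. Myelin scaling moved the median of all genes to 0.48 on the control and 0.21 on the high-fat diet, beside member medians of 1.40 and 1.66, so its counts include that shift. DESeq2 gave no adjusted p for B2m in either genotype comparison. H2-K1 on the control diet also missed the threshold with 1 of 5 libraries left out, and Psmb8 on the high-fat diet with 1 of 3. No paired analysis was possible because the groups share no replicate numbers. Depth limits what can be said of genes near 0 counts, among them H2-M2 and the interferon ligands.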
